A study of Homo sapiens with 104 samples.

Results

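The genes described here are 45 interferon-stimulated genes, the transcripts by which cells answer type I and type II interferons, examined in 26 human lymphoblastoid cell lines. They were chosen by name, as a list of well-known induced genes and their regulators, and measured through the probe sets that the platform annotation gives their symbol alone. Of the 45, 44 had such a probe set and all 44 passed the filter on dim genes, among 13842 genes tested in all. The transcription factor STAT2 had no probe set of its own symbol alone and was not analysed here.

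Type I interferons bind a receptor whose kinases JAK1 and TYK2 activate a complex that contains IRF9, and this complex binds the interferon-stimulated response element (ISRE) in promoters. Interferon gamma acts through a different receptor and the gamma-activated sequence (GAS) in promoters, and the factor IRF1 carries part of its signal onward. Many of the induced genes encode antiviral effectors, nucleic acid sensors and antigen-processing proteins, and B-cell lines can express them without added interferon.

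RNA was measured with oligonucleotide arrays in a panel of 24 numbered lymphoblastoid lines and in TK6 and MT1, an established pair of lines. MT1 is known to derive from TK6 and to lack DNA mismatch repair. Cells in mid log phase were taken either untreated or exposed to the DNA-methylating agent MNNG, with 2 arrays per line and condition (52 untreated and 52 MNNG arrays). The series set expression beside the killing of the lines by MNNG, and survival was not analysed here. The labels give neither a dose nor an exposure time, and mention no added interferon. TK6 and MT1 are 1 line each, and in bulk RNA a larger share of expressing cells and more RNA per cell cannot be told apart. The labels do not say whether the 2 arrays of a group came from different cultures, so p-values that rest on them may reflect only technical variation.

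Of the 52 MNNG arrays, 22 were left out because 2 probe sets of the cre spike-in differed there by -6.45 to -5.19 log2 units, against 0.082 to 0.83 on the other 82 arrays. They were 21 panel arrays and 1 MT1 array, so 19 panel lines kept an MNNG array (8 lines kept both, 11 kept 1) and MT1 kept 1. Levels are log2 of the deposited intensity plus 16 after quantile normalisation, with a floor at 5. A gene within 1 unit of the floor can show little further fall, and a rise that starts there may be understated. Duplicates correlated at 0.959 to 0.997 over genes. The markers fixed for B cells were high in every line (mean level of 7 measured markers 9.05 to 10.8 in untreated lines, with MS4A1, which encodes CD20, lowest at 6.37). A median within 1 unit of the floor was seen for 3 of 4 markers of plasmacytoid dendritic cells and 2 of 4 of myeloid cells. It was also seen for 3 of 4 of T and NK cells and 2 of 4 of fibroblasts and epithelium. Other markers of these lists were higher, with untreated medians of 7.65 for LYZ, 7.56 for KRT8 and 7.01 for COL1A1. KRT8 was at 9.84 in untreated TK6 and 9.63 in untreated MT1, and NKG7 was at 9.07 in untreated TK6. The log2 ratio of the 3′ to the 5′ probe set of ACTB, a sign of RNA or labelling quality, had a median of 0.050 on untreated and 0.28 on MNNG arrays of the panel, 0.26 and 0.39 in TK6, and 0.29 and 0.57 in MT1. Its part in the changes after MNNG was not tested.

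The promoters of 36 of the 45 genes were in the RefSeq table of GRCh38.p14, as windows of 300 bases that end 50 bases after the transcription start. Searched on both strands, the core ISRE letters (GAAA, any 2 bases, GAAA) stood in the window of 24 of these 36 genes (66.7%), against 4.38% of all 27305 genes in the table. The GAS letters TTCNNNGAA, which read the same on both strands, stood in 13 of the 36 (36.1%), against 9.38% of all genes, and 8 genes had both. A match describes letters and does not show a bound site. The 250 bases before the start are printed for 5 genes on which the results turn, in gene orientation, with ISRE and GAS matches in capitals. IFIT1 (chr10:89392373-89392622, plus strand) and ISG15 (chr1:1013247-1013496, plus strand) had wide ranges between untreated lines, GBP1 (chr1:89065209-89065458, minus strand) had the largest rise in TK6, IRF1 (chr5:132490774-132491023, minus strand) has a GAS match and no ISRE match, and HERC5 (chr4:88456869-88457118, plus strand) has 3 ISRE matches and stayed near the floor in TK6 and MT1.
IFIT1: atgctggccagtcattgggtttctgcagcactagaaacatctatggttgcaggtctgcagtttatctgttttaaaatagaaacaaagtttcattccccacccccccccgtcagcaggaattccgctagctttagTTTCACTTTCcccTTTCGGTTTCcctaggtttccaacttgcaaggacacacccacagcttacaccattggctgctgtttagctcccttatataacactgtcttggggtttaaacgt
ISG15: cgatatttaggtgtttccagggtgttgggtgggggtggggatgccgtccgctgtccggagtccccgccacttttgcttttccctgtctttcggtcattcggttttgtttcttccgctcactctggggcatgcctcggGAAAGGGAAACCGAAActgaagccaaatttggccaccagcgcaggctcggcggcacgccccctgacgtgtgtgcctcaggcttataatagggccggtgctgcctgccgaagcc
GBP1: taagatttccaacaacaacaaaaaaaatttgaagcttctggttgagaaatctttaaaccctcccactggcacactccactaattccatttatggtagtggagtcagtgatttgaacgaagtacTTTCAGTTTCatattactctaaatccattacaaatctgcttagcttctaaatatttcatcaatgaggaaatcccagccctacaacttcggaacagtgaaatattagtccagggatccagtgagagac
IRF1: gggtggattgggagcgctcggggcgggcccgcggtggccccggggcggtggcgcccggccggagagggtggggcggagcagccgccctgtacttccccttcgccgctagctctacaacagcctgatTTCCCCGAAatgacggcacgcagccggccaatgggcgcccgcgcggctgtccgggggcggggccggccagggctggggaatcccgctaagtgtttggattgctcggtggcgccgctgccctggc
HERC5: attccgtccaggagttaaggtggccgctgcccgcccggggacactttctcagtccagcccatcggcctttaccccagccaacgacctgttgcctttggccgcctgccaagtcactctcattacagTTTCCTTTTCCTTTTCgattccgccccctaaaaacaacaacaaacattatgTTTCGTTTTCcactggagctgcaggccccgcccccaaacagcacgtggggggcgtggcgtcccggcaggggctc
The 2 ISRE matches of IFIT1 begin 116 and 103 bases before the start. The 2 of ISG15 overlap each other and begin 113 and 107 bases before it, and the single match of GBP1 begins 127 bases before it. The GAS match of IRF1 begins 124 bases before the start.

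Untreated panel lines differed widely in interferon-stimulated transcripts. The level differed between the 24 lines beyond the spread of duplicates for 44 of the 44 genes (limma's F test, adjusted p below 0.05), where 68.1% of all genes tested passed. The range between the lowest and the highest line reached 4-fold for 34 of the 44 genes (77.3%), against 9.11% of all genes. It reached 16-fold for 13 (29.5%), against 1.4% of all genes, whether or not these passed the test. The median range was 9.46-fold, against 1.74-fold over all genes. Line 14 had the highest level for 28 genes and stood above the median for 44. Line 11 had the lowest level for 32 and line 20 for 7. Without lines 11 and 14, which were set aside after seeing the data, 44 genes still passed, a 4-fold range was reached by 24 and the median range was 4.37-fold. For 26 of the 44 genes leaving out a single line narrowed the range by over 1.5 times, which was line 11 for 18, line 14 for 8, line 20 for 2 and line 23 for 1, with some genes narrowed by either of a pair of lines. The counts of ranges with lines left out were not made over all genes.

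**Figure D1:**
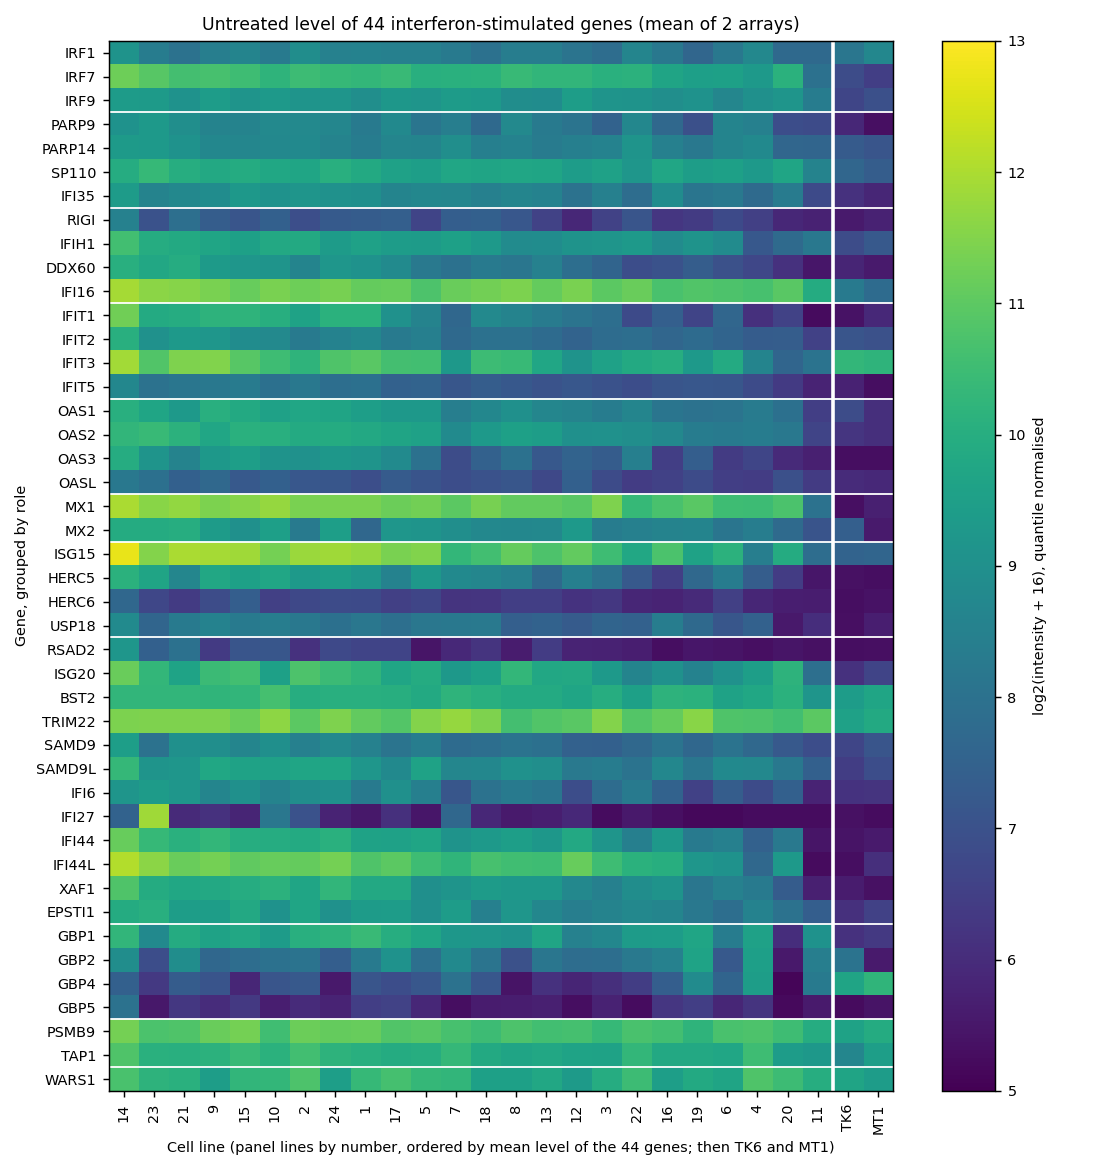
Untreated level, log2(intensity + 16), of 44 interferon-stimulated genes (rows, grouped by role with white lines between roles) in 24 panel lines ordered by their mean level, then in TK6 and MT1; each cell is a mean of 2 arrays and is to be read along its row. Line 14 at the left is high and line 11 at the right low in most rows, and TK6 and MT1 resemble the low end except in rows such as GBP4 and IFIT3.

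Among the IFIT family, which bind foreign RNA, IFIT1 ran from 5.25 in line 11 through a median of 8.58 to 11.27 in line 14, a 64.8-fold range (F = 354, adjusted p = 4.83e-36). In line 11 it was within 1 unit of the floor. IFIT3 ran from 7.62 in line 20 through 10.29 to 11.88 in line 14 (19.2-fold), IFIT2 spanned 11.5-fold and IFIT5 7.50-fold. The secreted and conjugated ubiquitin-like protein ISG15 had the largest F of the group (705, adjusted p = 3.02e-41), from 7.87 in line 11 through 11.09 to 12.73 in line 14 (29.0-fold), with a duplicate SD of 0.058 against an SD between lines of 1.15. Its ligase HERC5 ran from 5.47 in line 11 through 8.60 to 10.12 in line 14 (25.1-fold, adjusted p = 7.36e-36). Its protease USP18, which also dampens type I interferon signalling, ran from 5.56 in line 20 to 8.83 in line 14 (9.61-fold). All 7 of these genes were lowest in line 11 or 20 and highest in line 14. Without line 14 the range in log2 units fell from 6.02 to 4.96 for IFIT1, from 4.86 to 4.13 for ISG15 and from 3.52 to 2.75 for IFIT2. Without line 11 it was 5.16 for IFIT1, 2.73 for IFIT2 and 3.71 (from 4.65) for HERC5.

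The widest ranges were those of IFI44L and IFI27. IFI44L ran from 5.24 in line 11 through 10.61 to 12.07 in line 14 (113-fold), and its paralogue IFI44 from 5.47 through 9.53 to 11.13 in the same lines (50.6-fold). IFI27, a mitochondrial protein, lay within 1 unit of the floor in 17 of 24 lines and reached 11.86 in line 23, with the next line at 8.17, so its range of 6.70 log2 units was 3.01 without line 23. XAF1, which promotes cell death, ran from 5.69 in line 11 through 9.27 to 10.79 in line 14 (34.3-fold, adjusted p = 2.07e-35), and the RNA helicase DDX60 from 5.49 through 8.25 to 10.03 in the same lines (23.3-fold). Without line 11 the range in log2 units fell from 6.82 to 4.36 for IFI44L, from 5.66 to 3.65 for IFI44 (4.88 without line 14), from 5.10 to 3.45 for XAF1 and from 4.54 to 3.91 for DDX60.

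Of the antiviral GTPases, MX1 ran from 8.00 in line 11 through 11.25 to 11.98 in line 14 (15.7-fold, adjusted p = 9.01e-28) and MX2 from 7.08 in line 11 through 8.75 to 9.98 in line 21 (7.42-fold). The enzymes OAS1, OAS2 and OAS3, which make the activator of RNase L, spanned 12.1-fold, 13.4-fold and 19.2-fold, and their relative OASL 3.55-fold. The ADP-ribosyltransferase partner PARP9 ran from 6.81 in line 11 through 8.53 to 9.28 in line 23 (5.54-fold). Of the transcription factors, IRF7 ran from 8.00 in line 11 through 10.23 to 11.24 in line 14 (9.43-fold, adjusted p = 1.61e-27), IRF1 from 7.65 in line 19 through 8.38 to 9.12 in line 14 (2.76-fold, adjusted p = 3.60e-08) and IRF9 from 8.36 in line 11 through 9.13 to 9.47 in line 12 (2.16-fold, adjusted p = 1.21e-12). The peptide transporter TAP1 (2.90-fold), the immunoproteasome subunit PSMB9 (2.58-fold), the tRNA synthetase WARS1 (2.69-fold), the tetherin gene BST2 (2.72-fold) and the ubiquitin ligase TRIM22 (2.22-fold) also had narrow ranges. Without line 11 the range in log2 units fell from 3.97 to 1.62 for MX1, from 3.59 to 2.11 for OAS1, from 3.74 to 2.20 for OAS2, from 3.24 to 1.93 for IRF7 and from 2.89 to 2.30 for MX2.

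The genes rose and fell together across untreated lines, with a few that did not. Over the 24 lines the 946 pairs of genes had a median Pearson correlation of 0.66, 70.4% of pairs lay above 0.5 and 6.66% below 0. The median correlation of a member with all genes tested was -0.0079. These are descriptions over lines that share 1 normalisation, and without lines 11 and 14 the median was 0.53 with 53.1% of pairs above 0.5. IFIT5 followed the mean of the other members most closely (0.97), followed by XAF1, OAS1 and IFIT2 (each 0.95), and the closest pair was IFI44 with IFI44L (0.98). The guanylate-binding proteins GBP4 (-0.17) and GBP2 (0.078), which act against intracellular pathogens, and WARS1 (0.16) did not follow the mean, and GBP2 correlated with GBP4 at 0.76. GBP2 ran from 5.56 in line 20 through 8.07 to 9.64 in line 19 (16.9-fold, adjusted p = 2.73e-31; 2.75 log2 units without line 20, from 4.08), and GBP4 from 5.11 in line 20 through 7.12 to 9.44 in line 4 (20.1-fold, with a duplicate SD of 0.34).

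The 5 genes outside the list that followed the members' mean most closely over the 24 lines were the RNA editor ADAR (0.94), PARP12 and CMPK2 (both 0.93), the ISG15-conjugating enzyme UBE2L6 and the scramblase PLSCR1 (both 0.92). All 5 stood in a second list of 95 other interferon pathway genes, which was chosen with earlier results of these data known. Of that list 80 genes were tested, 74 differed between untreated lines and 28 had a range of at least 4-fold. Of all genes 68.1% passed this test, and 9.44% had such a range whether or not they passed. IFNG, the gene of interferon gamma, lay within 1 unit of the floor in 23 of 24 untreated lines (5.41 to 6.04).

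Untreated TK6 and MT1 had lower levels of most interferon-stimulated genes than the panel. The mean level over the 44 genes was 6.80 in TK6 and 6.78 in MT1, below each of the 24 panel lines, which ran from 7.21 in line 11 to 10.00 in line 14. Among the exceptions were GBP4, which was above 24 of 24 panel lines in TK6 (9.88 and 9.47) and in MT1 (10.42 and 10.04), IRF1 in MT1 (above 21 lines), IFIT3 (above 12 lines in both) and GBP2 in TK6 (above 11). MX1 was 5.31 and 5.36 in TK6 and 5.92 and 5.50 in MT1, where the lowest panel line was at 8.00. These placements are descriptions, with no test.

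**Figure D2:**
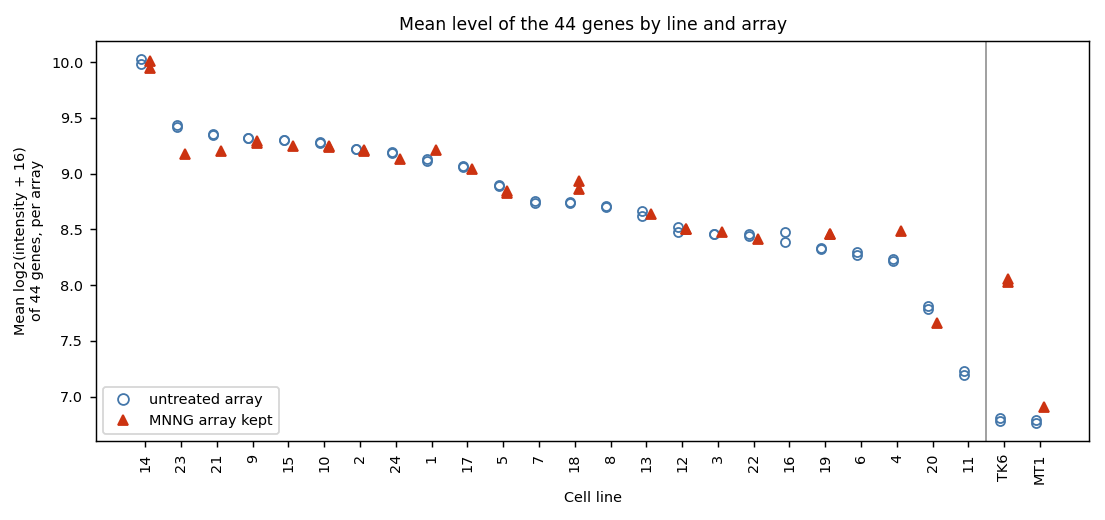
Mean log2(intensity + 16) of the 44 genes on each array, for 24 panel lines in order of their untreated mean and then TK6 and MT1; open circles are untreated arrays and triangles the MNNG arrays kept. Duplicates lie close together, panel lines keep their order after MNNG for the most part, and TK6 moves from 6.80 to 8.04 while MT1 moves from 6.78 to 6.91.

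MT1 differed from TK6 before treatment in single genes rather than in 1 direction. Of the 44 genes, 14 were higher and 10 lower in MT1 (54.5%), where 25.2% of all genes passed (13.6% higher, 11.7% lower), with a median difference of 0.044 against 0.012 over all genes. GBP2 was 8.08 and 8.00 in TK6 and 5.53 and 5.61 in MT1. The difference was -2.47 ± 0.091 (SE, n = 2 each, limma's adjusted p = 3.14e-24), with the spread pooled over all groups of arrays. MX2 was 7.42 and 7.44 in TK6 and 5.65 and 5.54 in MT1 (-1.84 ± 0.088, adjusted p = 2.22e-20). Both genes were thus near the floor in MT1 and well above it in TK6. TAP1 was 8.68 on both arrays of TK6 and 9.52 and 9.43 in MT1 (0.80 ± 0.081, adjusted p = 1.47e-10), and IFI44L was 5.28 and 5.33 in TK6 and 6.23 and 5.93 in MT1 (0.78 ± 0.14, adjusted p = 3.49e-05). OAS1 (-0.76 ± 0.11), PARP9 (-0.57 ± 0.078), IFIT5 (-0.48 ± 0.10), the DNA sensor IFI16 (-0.46 ± 0.11) and IRF7 (-0.38 ± 0.082) were lower in MT1. IRF1 (0.55 ± 0.19), IFIT1 (0.54 ± 0.12), the exonuclease ISG20 (0.51 ± 0.095), EPSTI1 (0.45 ± 0.092), SAMD9L (0.44 ± 0.094), SAMD9 (0.43 ± 0.091), MX1 (0.38 ± 0.10), the RNA sensor IFIH1 (0.37 ± 0.099) and IRF9 (0.27 ± 0.088) were higher. ISG15 differed by 0.041 ± 0.061 (adjusted p = 0.74), which did not pass.

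The counts for MT1 against TK6 depended on scaling, with 13 of the 44 genes called on values as deposited, 7 with arrays centred on their medians and 10 when only arrays of TK6 and MT1 entered the model. Leaving out 1 of the 4 untreated arrays lost 4 or 5 of the 24 calls. That of IRF9 was lost in each of these fits (0.26 to 0.28), that of IRF1 without replicate 1 of TK6 (0.24) or replicate 2 of MT1 (0.35), that of MX1 without replicate 1 of MT1 (0.17) and that of IFIH1 without replicate 2 of MT1 (0.32). The calls of XAF1, SP110 and WARS1, all lower in MT1, were also lost in some of them. Of the 80 other pathway genes tested, 16 were higher and 12 lower in MT1, against 13.6% and 11.7% of all genes. The chemokine CXCL10 was at 5.82 in TK6 and 10.32 in MT1 (4.498 ± 0.11, adjusted p = 3.63e-31), and the B-cell transcription factor IRF8 at 10.31 in TK6 and 7.06 in MT1 (-3.24 ± 0.17, adjusted p = 2.79e-19). IFITM2 (1.65 ± 0.30), APOL1 (-1.83 ± 0.17), DTX3L (-1.65 ± 0.18) and the receptor gene IFNGR1 (-1.22 ± 0.088) followed by size.

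After MNNG, interferon-stimulated transcripts rose in TK6. By limma's test, 36 of the 44 genes were higher and 0 lower (81.8%; 0 lower also at an unadjusted p below 0.05), where 41.2% of all genes passed (21.6% higher, 19.5% lower). Rises of at least 1.5-fold were seen for 33 genes (13.3% of all genes) and of at least 2-fold for 29 (5.92% of all genes). The median change was 1.22 on the log2 scale, against -0.029 over all genes. Both MNNG arrays lay above both untreated arrays for 40 of the 44, which held for 32.2% of all genes. The mean level over the genes went from 6.80 to 8.04 and was then above 2 of the 24 untreated panel lines.

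**Figure D3:**
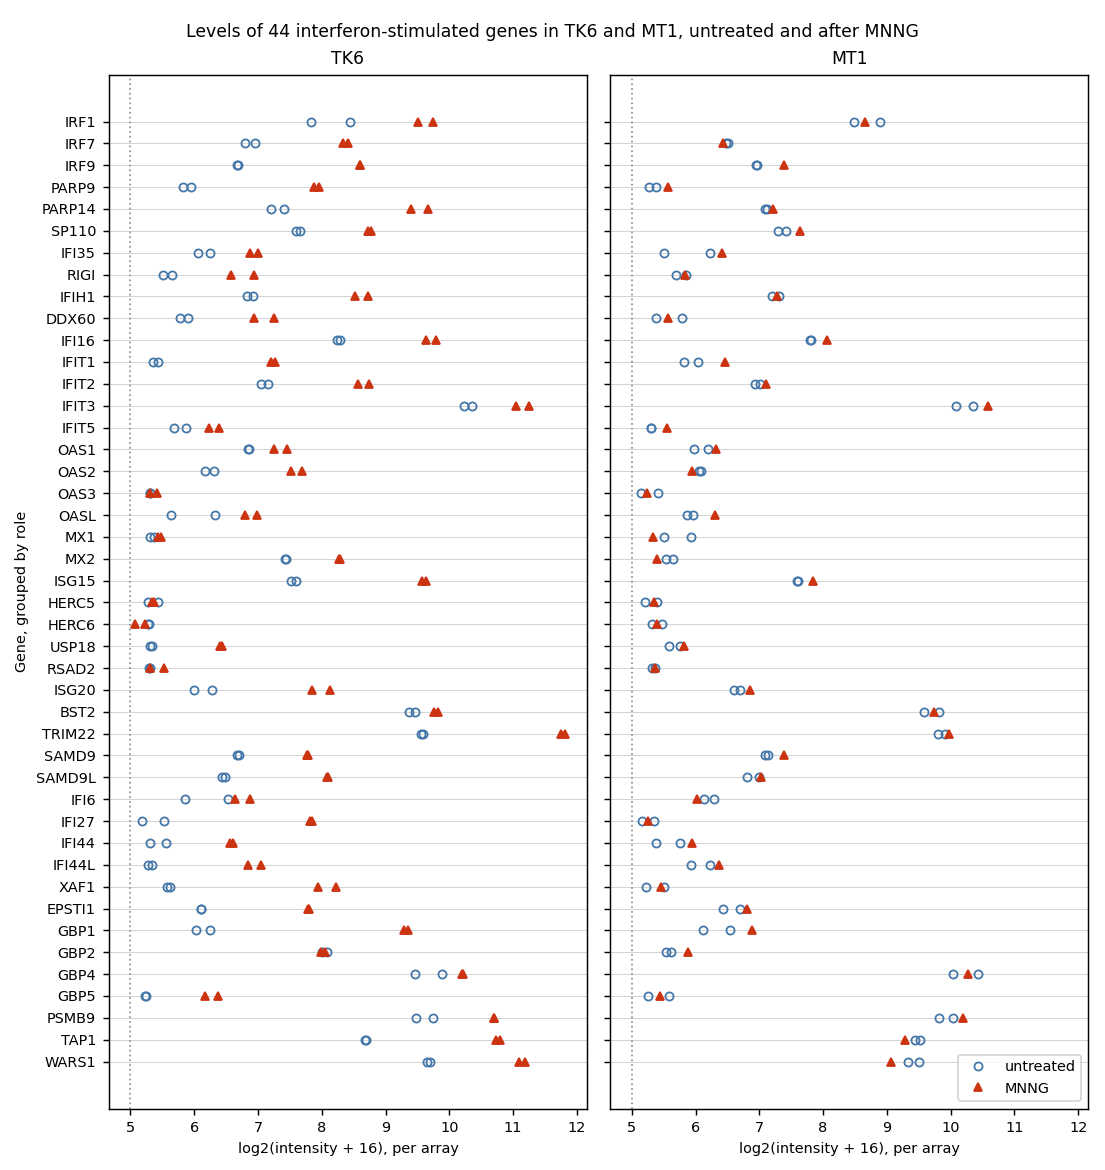
Level, log2(intensity + 16), of 44 interferon-stimulated genes on each array of TK6 (left) and MT1 (right); open circles are untreated arrays, triangles MNNG arrays (2 in TK6, 1 in MT1), and the dotted line is the floor at 5. In TK6 the triangles lie right of the circles in 40 rows, while in MT1 most triangles lie at or near the circles.

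The 3 measured transcription factors rose in TK6. IRF9, the DNA-binding subunit of the type I complex, was 6.67 and 6.69 on untreated and 8.59 and 8.59 on MNNG arrays. Its change was 1.91 ± 0.088 (SE, n = 2 each, limma's adjusted p = 3.64e-21), with the spread pooled over all groups of arrays. IRF7, which amplifies type I interferon production, went from 6.95 and 6.79 to 8.41 and 8.33 (1.498 ± 0.082, adjusted p = 9.46e-19). IRF1 went from 7.83 and 8.44 to 9.75 and 9.51 (1.49 ± 0.19, adjusted p = 8.92e-09), with untreated duplicates further apart than those of the other factors. In all 3 both MNNG arrays lay above both untreated arrays, which held for 32.2% of all genes. The co-regulators rose too, among them PARP14, from 7.41 and 7.20 to 9.67 and 9.40 (2.23 ± 0.11, adjusted p = 7.97e-21), and PARP9, from 5.96 and 5.82 to 7.87 and 7.96 (2.03 ± 0.078, adjusted p = 7.54e-24). The 4 sensors rose by 1.18 (RIGI) to 1.75 (IFIH1).

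Among effectors, the GTPase GBP1 had the largest rise. It was 6.02 and 6.25 on untreated and 9.29 and 9.35 on MNNG arrays (3.19 ± 0.14, adjusted p = 3.20e-22), which on the deposited linear scale was 38.8 and 44.9 against 625.6 and 622.2. IFI27 went from 5.52 and 5.17 to 7.85 and 7.82 (2.49 ± 0.13, adjusted p = 4.08e-19) and XAF1 from 5.57 and 5.62 to 7.93 and 8.22 (2.48 ± 0.084, adjusted p = 1.66e-25). Both started within 1 unit of the floor. TRIM22 went from 9.56 and 9.59 to 11.74 and 11.82 (2.21 ± 0.054, adjusted p = 2.98e-30), with intensities of 747.8 and 753.3 against 3271 and 3375. TAP1 went from 8.68 on both arrays to 10.80 and 10.73 (2.09 ± 0.081, adjusted p = 9.69e-24).

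ISG15 went from 7.51 and 7.60 to 9.56 and 9.63 (2.04 ± 0.061, adjusted p = 2.69e-27), a 4.11-fold rise. ISG20 went from 6.28 and 5.99 to 8.13 and 7.85 (1.85 ± 0.095) and IFIT1 from 5.36 and 5.43 to 7.20 and 7.26 (1.84 ± 0.12, adjusted p = 9.78e-17). The 4 IFIT genes all rose, by 0.54 (IFIT5) to 1.84 (IFIT1). Of the OAS genes, OAS2 rose by 1.37 ± 0.18, OASL by 0.92 ± 0.20 and OAS1 by 0.50 ± 0.11. WARS1, whose product charges tryptophan onto tRNA, rose by 1.46 ± 0.083 and PSMB9 by 1.08 ± 0.096.

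The change did not pass the test for 8 genes in TK6. MX1 was 5.31 and 5.36 untreated and 5.43 and 5.48 after MNNG (0.12 ± 0.10, adjusted p = 0.38), HERC5 was 5.43 and 5.27 against 5.37 and 5.34 (0.0026 ± 0.091, adjusted p = 0.99), and OAS3, HERC6 and RSAD2, the viperin gene, also stayed within 1 unit of the floor. All 5 were thus barely detected in this line under both conditions. GBP2 was 8.08 and 8.00 against 7.98 and 8.04 (-0.033 ± 0.091), GBP4 was 9.88 and 9.47 against 10.22 and 10.20 (0.53 ± 0.33) and IFI6 was 5.85 and 6.52 against 6.88 and 6.64 (0.58 ± 0.50). The other probe set, which was not tested, had a change of 0.79 for GBP2 and 1.17 for GBP4. Other probe sets of some genes that rose, also not tested, changed less. They gave 0.35 for PARP9, 0.024 for IFI44, and 0.034 and 0.74 for RIGI. Of 38 other probe sets of the members, 4 changed in TK6 in the opposite direction to the one used. Among the 35 tested genes with a promoter window, 18 of 24 with an ISRE match and 10 of 11 without one rose, with median changes of 1.36 and 1.18.

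Of the 80 other pathway genes, 41 rose, 12 fell and 27 did not pass in TK6, where 21.6% of all genes rose and 19.5% fell. The largest rises were those of the death ligand TNFSF10 (3.40 ± 0.23), IFNG, which went from 5.35 and 5.51 to 8.82 and 8.60 (3.28 ± 0.12, adjusted p = 5.39e-24), the chemokine CXCL9 (2.87 ± 0.12), the DNA sensor AIM2 (2.49 ± 0.087), CXCL10 (2.34 ± 0.11) and the receptor kinase TYK2 (2.16 ± 0.17). The 12 that fell were led by TRIM14 (-1.39 ± 0.091), the receptor gene IFNGR1 (-1.09 ± 0.088), APOL1 (-1.08 ± 0.17) and IFITM3 (-1.07 ± 0.16). IFITM1 (-0.78 ± 0.099) and the receptor genes IFNGR2 (-0.77 ± 0.086) and IFNAR2 (-0.74 ± 0.079) followed. Marker genes changed in both directions on the same arrays. Of 7 B-cell markers 4 rose (CD40 0.99, PAX5 0.66, MS4A1 0.60, HLA-DRA 0.18) and 3 fell (CD79A -1.47, CD79B -0.79, CD22 -0.48). Of 4 markers of activated B cells CD80 (1.70) and EBI3 (0.74) rose and CD70 (-0.88) fell, and of 4 plasma cell markers PRDM1 (2.25) and SDC1 (1.40) rose while MZB1 (-2.72) and XBP1 (-1.18) fell. Of 4 myeloid markers ITGAM (2.27) rose, CD14 and CSF1R stayed within 1 unit of the floor, and LYZ was at 7.79 before and 7.31 after. LILRA4 of plasmacytoid dendritic cells rose (0.39), and NKG7 of T and NK cells (-1.16) and COL1A2 of fibroblasts (-0.39) fell. The mean over the 7 B-cell markers was 10.08 before and 10.04 after, and that over the 4 myeloid markers was 6.15 and 6.57. The part of these shifts in the rise was not tested. With the 22 arrays set aside put back, 11 of the 44 genes rose and 0 fell (0 also at an unadjusted p below 0.05).

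In MT1, which kept 1 MNNG array that is assumed to vary like the others, few of the genes changed. Of the 44, 3 were higher and 1 lower (9.09%), where 3.56% of all genes passed (2.36% higher, 1.21% lower), and the median change was 0.13 against 0.033 over all genes. GBP1 was 6.12 and 6.54 untreated and 6.89 after MNNG (0.56 ± 0.17, adjusted p = 0.0499). IFIT1 was 5.82 and 6.04 against 6.46 (0.53 ± 0.14, adjusted p = 0.029) and IRF9 was 6.94 and 6.96 against 7.39 (0.44 ± 0.11, adjusted p = 0.015). WARS1 was 9.50 and 9.33 against 9.06 (-0.35 ± 0.10, adjusted p = 0.041). ISG15 (0.25 ± 0.075, adjusted p = 0.057), MX1 (-0.39 ± 0.12, adjusted p = 0.069), IRF1 (-0.024 ± 0.23) and IRF7 (-0.055 ± 0.10) did not pass. When only arrays of TK6 and MT1 entered the limma model, 0 of all genes passed (1623 at an unadjusted p below 0.05, among them 5 of the 44), and without untreated replicate 1 of MT1 all 4 calls were lost and 1 other gene was called, with changes of 0.35 for GBP1, 0.42 for IFIT1, 0.43 for IRF9 and -0.27 for WARS1. Without untreated replicate 2 the 4 calls were kept and 2 were added. Of the other pathway genes 4 rose, among them TNFSF10 (1.51 ± 0.29), IFNG (1.02 ± 0.15) and TRIM5 (0.95 ± 0.23), and 2 fell, ADAR (-0.50 ± 0.12) and the receptor gene IFNAR2 (-0.35 ± 0.097).

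The response of TK6 exceeded that of MT1 for most of the genes when the difference itself was tested. By limma's test, 32 of the 44 had a larger change in TK6 and 0 a smaller one (72.7%; 1 smaller at an unadjusted p below 0.05), where 24.7% of all genes passed (12.2% larger, 12.5% smaller). The median difference of changes was 1.15, against -0.044 over all genes. Larger and smaller refer to the signed change, which for MX1 was 0.12 in TK6 and -0.39 in MT1. GBP1 (2.62 ± 0.22, adjusted p = 1.00e-12), IFI27 (2.49 ± 0.21), XAF1 (2.40 ± 0.13), TAP1 (2.27 ± 0.13), PARP14 (2.12 ± 0.17) and TRIM22 (2.08 ± 0.086, adjusted p = 1.42e-21) differed most. WARS1 (1.81 ± 0.13) rose in TK6 and fell in MT1. ISG15 (1.79 ± 0.097), PARP9 (1.78 ± 0.12), IFIH1 (1.72 ± 0.16), IRF7 (1.55 ± 0.13), IRF1 (1.51 ± 0.29), IRF9 (1.47 ± 0.14), IFIT1 (1.31 ± 0.19) and MX1 (0.50 ± 0.16, adjusted p = 0.015) also passed. For MX1 both lines were within 1 unit of the floor, and its call was lost without untreated replicate 1 of MT1 (0.29). The 12 genes that did not pass included OAS1 (0.26 ± 0.17), IFI35 (0.23 ± 0.23), IFIT5 (0.28 ± 0.16), OASL (0.52 ± 0.31) and BST2 (0.34 ± 0.18), which had risen in TK6. Of the other pathway genes 29 had a larger and 8 a smaller change in TK6, led by CXCL9 (2.47 ± 0.18), TYK2 (2.35 ± 0.26), AIM2 (2.32 ± 0.14), IFNG (2.25 ± 0.20), CXCL10 (2.08 ± 0.17) and PARP10 (2.05 ± 0.36). The 8 with a smaller change in TK6 were APOL1 (-1.48), TRIM14 (-1.28), IFNGR1 (-0.97), IFNE (-0.82), IFITM1 (-0.77), IFITM3 (-0.70), IFNGR2 (-0.49) and IFNAR2 (-0.39). Other probe sets of the members, which were not tested, did not all show the difference. The other probe set of PARP9 changed by 0.35 in both TK6 and MT1. A further probe set of RIGI changed by 0.034 in TK6 and 0.37 in MT1, and a further probe set of GBP1 by 2.94 and 0.68. With the 22 arrays put back 1 of the 44 differences passed, and 24 passed on values as deposited.

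In the panel, the genes were called after MNNG about as often as all genes, with small changes in both directions. Of the 44, 11 were higher and 8 lower over the 19 lines (43.2%; 2 and 10 with arrays centred on their medians), where 42.6% of all genes passed (28.7% higher, 13.8% lower), and the median change was 0.00084 against 0.037 over all genes. No member changed by 1.5-fold or more, which 0.0939% of all genes did upward and 0.238% downward. IFI6 lay just short of that bound (-0.58) and exceeded it without line 12 (-0.65). USP18 rose in 19 of 19 lines, by 0.024 to 0.53 (mean 0.23 ± 0.032, adjusted p = 4.28e-06). OAS2 fell in 18 of 19 lines, with changes of -0.70 to 0.018 (mean -0.42 ± 0.043, adjusted p = 1.15e-07), and IFI6 had the largest mean fall (-0.58 ± 0.091, adjusted p = 1.89e-05) with lines from -1.27 to 0.54 and a duplicate SD of 0.52. IFI16 fell in 18 lines (-0.15 ± 0.027, adjusted p = 0.00015).

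**Figure D4:**
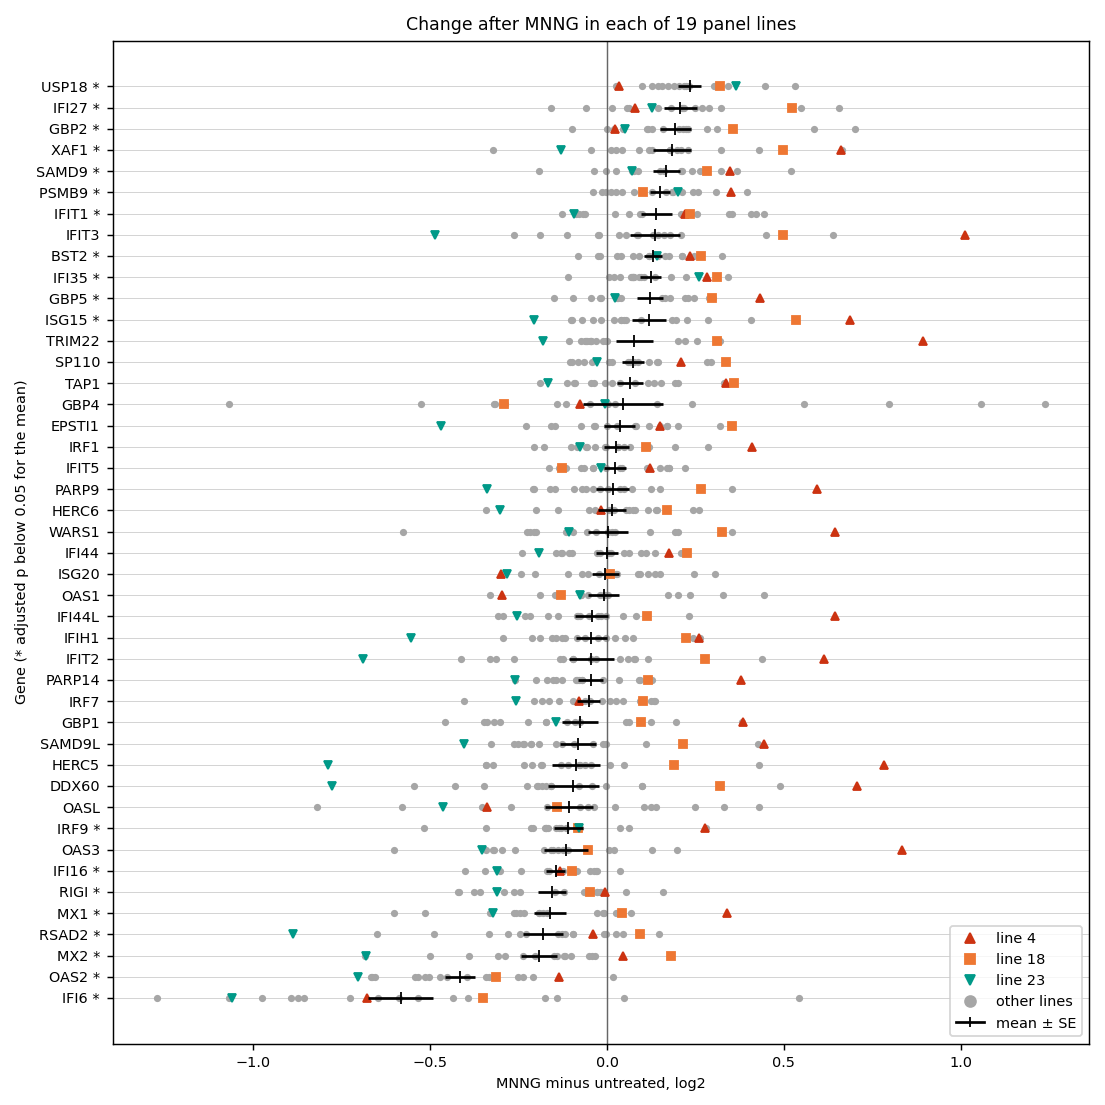
Change after MNNG, log2, in each of 19 panel lines for 44 interferon-stimulated genes ordered by the mean change; black bars are the mean ± SE over lines, asterisks mark an adjusted p below 0.05 for the mean, and lines 4, 18 and 23 have symbols of their own. The means lie between -0.58 and 0.23, and line 4 lies at the right and line 23 at the left of many rows.

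The other rises in the panel were IFI27 (0.21 ± 0.046), GBP2 (0.19 ± 0.044), XAF1 (0.18 ± 0.053), SAMD9 (0.17 ± 0.038), PSMB9 (0.15 ± 0.029), IFIT1 (0.14 ± 0.043), BST2 (0.13 ± 0.026), IFI35 (0.12 ± 0.029), GBP5 (0.12 ± 0.038) and ISG15 (0.12 ± 0.048, adjusted p = 0.047, higher in 13 of 19 lines). The call of ISG15 was lost in 11 of 21 fits that left out a line or a replicate (0.088 without line 4 to 0.23), and that of IRF9 in 8 of 21 (-0.17 to -0.068). The other falls were MX2 (-0.19 ± 0.052), RSAD2 (-0.18 ± 0.057), MX1 (-0.16 ± 0.046, lower in 15 lines), RIGI (-0.16 ± 0.041) and IRF9 (-0.11 ± 0.041, adjusted p = 0.0328). IRF1 (0.026 ± 0.035) and IRF7 (-0.052 ± 0.033) did not pass. The directions depended on scaling: on values as deposited 11 genes were higher and 5 lower, and with arrays centred on their medians 2 were higher and 10 lower, with PSMB9, BST2, IFI35 and ISG15 slightly below 0. The shares of all genes by direction under these scalings are not given here. Whether the turn is particular to the interferon-stimulated genes was not tested. A fit without replicate 1 called 3 genes and a limma fit without the line as a block called 0 (1 at an unadjusted p below 0.05). The rise of XAF1 became a fall of -0.16 with the mean of all its probe sets. With such means for all genes, 14 of the 19 calls kept their direction, 4 were lost and 5 were added. Of 38 other probe sets of the members, which were not tested, 13 changed in the opposite direction to the one used.

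The order of the lines outlasted the treatment. Across the 19 lines, the MNNG level of a gene correlated with its untreated level at 0.53 (IRF9) to 0.99, with a median of 0.95 over the 44 genes, and 33 genes had the same highest line before and after. In 0 of the 44 did the mean change exceed the SD between untreated lines. These values were not computed over all genes, so whether they are particular to the interferon-stimulated genes was not tested. The untreated and treated arrays compared here are of the same cell line and share 1 normalisation. Of the 80 other pathway genes tested, 21 rose and 24 fell in the panel, where 28.7% of all genes rose and 13.8% fell. CXCL10 (0.65 ± 0.076), the antigen-loading gene TAPBP (-0.47 ± 0.056), IRF2 (-0.43 ± 0.038), TNFSF10 (0.42 ± 0.061), IRF4 (-0.39 ± 0.060) and JAK2 (-0.39 ± 0.040) changed most.

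Panel lines differed from each other in the response of some of the genes. The F test of differences between lines passed for 20 of the 44 genes (45.5%), against 6.13% of all genes. Line 4, which kept 1 MNNG array, had 33 genes higher and 11 lower, 11 of them higher by at least 1.5-fold, with a median change of 0.27. Line 18, with 2 arrays, had 34 higher and a median of 0.20 but none by 1.5-fold, and line 23, with 1 array, had 36 lower, 7 of them by at least 1.5-fold, and a median of -0.23. The medians over all genes in these lines were 0.0059, 0.030 and 0.039. Changes of TRIM22 ran from -0.18 in line 23 through a median of -0.033 to 0.89 in line 4 (adjusted p = 2.94e-09), with the next line at 0.32. ISG15 ran from -0.21 in line 23 through 0.047 to 0.69 in line 4 (adjusted p = 1.79e-07), with line 18 next at 0.54.

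HERC5 changes ran from -0.79 in line 23 to 0.78 in line 4 (adjusted p = 1.22e-06), IFIT3 from -0.49 in line 23 to 1.01 in line 4 (adjusted p = 5.26e-06), WARS1 from -0.58 in line 20 to 0.64 in line 4 (adjusted p = 1.33e-05) and XAF1 from -0.32 in line 24 to 0.66 in line 19 (adjusted p = 2.47e-05). PARP9, DDX60, IFIT2 and SAMD9L had their lowest change in line 23 and their highest in line 4. MX2 ranged from -0.68 in line 20 to 0.18 in line 19 and RSAD2 from -0.89 in line 23 to 0.15 in line 2. Without line 4, 15 of the 44 genes passed and the range of TRIM22 fell from 1.07 to 0.50 log2 units. On values as deposited 3 genes passed, with arrays centred on their medians 8 did, and with the 22 arrays put back 2 did.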

How the data were processed

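The deposited values were intensities from 104 single-colour oligonucleotide arrays (54675 probe sets), made by the authors with PLIER per the submitters' processing notes, with its version not given in the sources used here. They ran from 16.0 to 65535. MNNG arrays were left out where the difference of 2 cre spike-in probe sets was under -2 on the log2 scale, which kept 82 arrays. Values were log2(intensity + 16), quantile normalised. Each gene was represented by its single-symbol probe set of highest mean (19775 genes), and the dimmest 30% were left out. Tests used limma 3.58.1 in R 4.3.3 (lmFit, eBayes with trend) with Benjamini-Hochberg adjustment over 13842 genes. The panel response was fitted on means per line and condition with line as a block, and the other comparisons on single arrays in 1 model of all groups. The fits were tested on simulated data.

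The members, the other gene lists and the motifs were chosen with earlier results of these data known. Named are up to 10 members per direction by size of change, up to 12 by F, always IFIT1, ISG15, MX1, IRF1, IRF7 and IRF9, up to 6 other pathway genes per comparison, and the 5 genes most like the members' mean. Further members are named as examples of their role. Further pathway genes that fell in TK6, or had a smaller change there than in MT1, are named beside those 6. The number of arrays limits the precision. Figures were drawn with matplotlib 3.10.9.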

Additional observations from a re-analysis of the deposited data

Results flagged for a closer look

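The change after MNNG differed between TK6 and MT1 by limma's test of the difference itself for 15 of the genes named above, each larger in TK6. On the log2 scale the difference was 2.62 for GBP1, 2.49 for IFI27, 2.40 for XAF1, 2.27 for TAP1, 2.12 for PARP14 and 2.08 for TRIM22. It was 1.81 for WARS1, 1.79 for ISG15, 1.78 for PARP9, 1.72 for IFIH1, 1.55 for IRF7, 1.51 for IRF1, 1.47 for IRF9, 1.31 for IFIT1 and 0.50 for MX1. Larger refers to the signed change, which for MX1 was 0.12 in TK6 and -0.39 in MT1. The MT1 side of each difference rests on 1 MNNG array. The response differed between panel lines for 20 of the 44 members.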

How the results depend on the processing

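Counts are of all genes, with those of the 44 members after them. On values as deposited, TK6 had 3623 genes, MT1 99, the difference of responses 1294, untreated MT1 against TK6 1591 with 13 members, and differences between lines in response 79 with 3. With median-centred arrays the panel had 3291 with 12, MT1 67 with 0, the difference of responses 1682, untreated MT1 against TK6 2057 with 7, and lines in response 442 with 8. With the 22 arrays set aside put back the panel had 9685 with 29, TK6 464 with 11, MT1 14 with 0, the difference 126 with 1, untreated MT1 against TK6 178 with 0 (limma; 2 members at an unadjusted p below 0.05), lines in response 290 with 2, and untreated lines 1379 with 25. In MT1, 9 members passed with a pseudocount of 1, 1 with 64, 2 without the filter and 2 without the trend. The panel had 2097 with 0 without the line block and 2415 with 7 over lines with both MNNG arrays. With TK6 and MT1 arrays alone, MT1 had 0 genes and 0 members, the difference 1915, and untreated MT1 against TK6 2225 with 10.

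Replicate numbers did not pair the samples (in 9 lines the correlation of same-numbered deviations was -0.62 to 0.14, above 0.1 in 2). With the replicate block MT1 had 740 genes with 6 members, and the panel 24 members, TK6 36, the difference 32, untreated MT1 against TK6 25, lines in response 22 and untreated lines 44.

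Leaving out 1 line or replicate gave 1188 (without replicate 1) to 6262 genes and 3 to 22 members in the panel, 424 (without line 4) to 966 and 15 to 20 for lines in response, 9137 to 9550 and 44 for untreated lines, 4794 to 4983 and 35 to 36 in TK6, 212 to 326 and 1 to 6 in MT1, 2892 to 3139 and 31 to 33 for the difference, and 2741 to 2936 and 20 to 21 for untreated MT1 against TK6. The single MT1 MNNG array could not be left out.

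Directions turned as follows, and the cause was not tested. In the panel, median-centring gave PSMB9 -0.0085, BST2 -0.022, IFI35 -0.020, ISG15 -0.045 and IRF1 -0.10, and the mean of probe sets XAF1 -0.16. With the 22 arrays put back the panel gave IFI27 -0.034, GBP2 -0.87, SAMD9 -0.64, PSMB9 -0.26, IFIT1 -0.55, ISG15 -1.11, MX2 0.067, RIGI 0.17, IFI16 0.20 and IRF9 0.076, and MT1 gave WARS1 0.15, ISG15 -0.27 and IRF1 0.32. In MT1, values as deposited gave MX1 0.043, IRF1 0.073 and IRF7 0.33, the mean of probe sets IRF1 0.12, and leaving out an untreated replicate IRF1 -0.22 to 0.18 (the latter without replicate 2). For untreated MT1 against TK6, leaving out a replicate gave ISG15 -0.0044 (without TK6 replicate 1) to 0.087. Values as deposited moved the all-gene median to 0.13 (panel), 0.12 (TK6), 0.31 (MT1) and -0.20 (difference of responses), and median-centring moved that of MT1 to -0.13.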

Other observations

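Of the 80 other interferon pathway genes, 11 differed between panel lines in their change after MNNG, as did 6.13% of all genes. LAMP3, a lysosomal membrane protein of activated cells, ran from -0.017 in line 14 through a median of 0.12 to 1.68 in line 4 (limma's F test, adjusted p = 1.28e-14). IFNG ran from -0.14 in line 14 through 0.26 to 1.87 in line 1 (adjusted p = 3.09e-08), CXCL10 from -0.055 in line 23 through 0.59 to 1.53 in line 17 (adjusted p = 1.03e-06), and CXCL9 from -0.22 in line 20 through 0.20 to 1.41 in line 4 (adjusted p = 4.80e-06). Lines 1, 4 and 17 kept 1 MNNG array each. Untreated CXCL10 ranged 93.6-fold between panel lines, from 5.27 in line 6 through 7.52 to 11.82 in line 4, the line whose mean over the interferon-stimulated genes was 8.22.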
